A study of Mus musculus with 12 samples.

Results

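The genes described here encode the extracellular and receptor-proximal part of insulin-like growth factor (IGF) signalling: the ligand Igf1, the receptor Igf1r, the adaptor Irs1 and the binding proteins Igfbp2, Igfbp3, Igfbp4, Igfbp5, Igfbp6 and Igfbp7. They were taken by name, before any filter, as 9 of the 36229 Ensembl genes of the deposited table, and all 9 passed the filter on low values in each fit. The study turned C57BL/6 mouse embryonic fibroblasts into muscle-like cells by delivering MyoD, a master regulator of muscle differentiation, with an adenovirus, and asked how loss of Rb1, the retinoblastoma tumour suppressor, and of Kdm5a, a histone H3 lysine 4 demethylase also called Jarid1a or Rbp2, changed gene expression. All groups received the virus for 24 h and fresh differentiation medium for another 72 h, with 2% horse serum and 10 µg/ml insulin throughout, so no group was without insulin. Every group therefore also carried MyoD from the virus.

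The mixed cultures, which hold myotubes and cells that did not fuse, were DKO (Kdm5a-/-;Rb1-/-), Rb1 KO (Rb1-/-), Kdm5a KO (Kdm5a-/-) and WT. Purified myotubes, separated from such cultures by settling and left for 24 h in conditioned medium, were DKO and WT. Each of the 6 groups had n = 2 libraries. The labels do not say how the alleles were made, which exons they remove, or whether replicates came from separate embryos, so p-values measure only the spread between these libraries, which may be technical. Mixed libraries came from ribosome-depleted RNA read for 40 bases, and purified ones from oligo(dT)-selected, PCR-amplified RNA read for 36 bases on another instrument.

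IGF ligands bind the receptor tyrosine kinase IGF1R, which phosphorylates IRS1 and thereby recruits PI3-kinase and Akt. IGF binding proteins are secreted carriers that hold IGFs away from the receptor or deliver them when cut by proteases. In muscle cells IGFs act on both proliferation and differentiation, MyoD-driven myoblasts make their own IGF2, and insulin at high concentration can also engage IGF1R.

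Values are read counts divided by a size factor per library, called normalised counts below. Libraries held 8688604 to 41309134 reads. The replicates of DKO purified differed by a median of 0.508 on the log2 scale, against 0.106 to 0.185 in the other groups, so values of that group are the least certain. Rb1, counted over the whole gene, stood at 5309 and 5662 in DKO, 4457 and 4448 in Rb1 KO, 5079 and 5193 in Kdm5a KO and 5616 and 5649.5 in WT mixed cultures, and at 2356 and 2104 in DKO against 3499.5 and 3218 in WT purified myotubes. Kdm5a stood at 1319 and 1369.7 in DKO, 2094 and 1886 in Rb1 KO, 1088 and 1192 in Kdm5a KO and 1637 and 1871 in WT mixed cultures, and at 787 and 614 in DKO against 3032 and 2775 in WT purified myotubes. Whole-gene counts do not show the loss of single exons, so the DKO mixed level of Rb1, which overlapped WT, does not test the label. Xist was at 3110 to 9881 in every Kdm5a-/- library and at most 2.48 in the others, and Ddx3y, a Y-linked gene, was at 0 in the first and at 1080 to 3319 in the others. Embryo sex and Kdm5a genotype therefore cannot be told apart in any comparison that spans them, although all 9 genes are autosomal. Markers of other cell types were also read, unevenly within each list. The summed macrophage list ran from 318 to 2006, with Itgam at up to 1873.5 and Cd68 at up to 1043 but Ptprc at most 63.5. The endothelial list ran from 217 to 1295, with Vwf at up to 1014 and Tie1 at most 1.0. The adipocyte list ran from 784 to 3477, with Lpl at up to 3194 and Adipoq at most 8.9. The cartilage and bone list ran from 355 to 3281, with Runx2 at up to 1349, Sox9 at up to 1344 and Ibsp at most 0.9. The smooth muscle and myofibroblast list ran from 24361 to 127997, mostly Acta2.

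**Figure D1:**
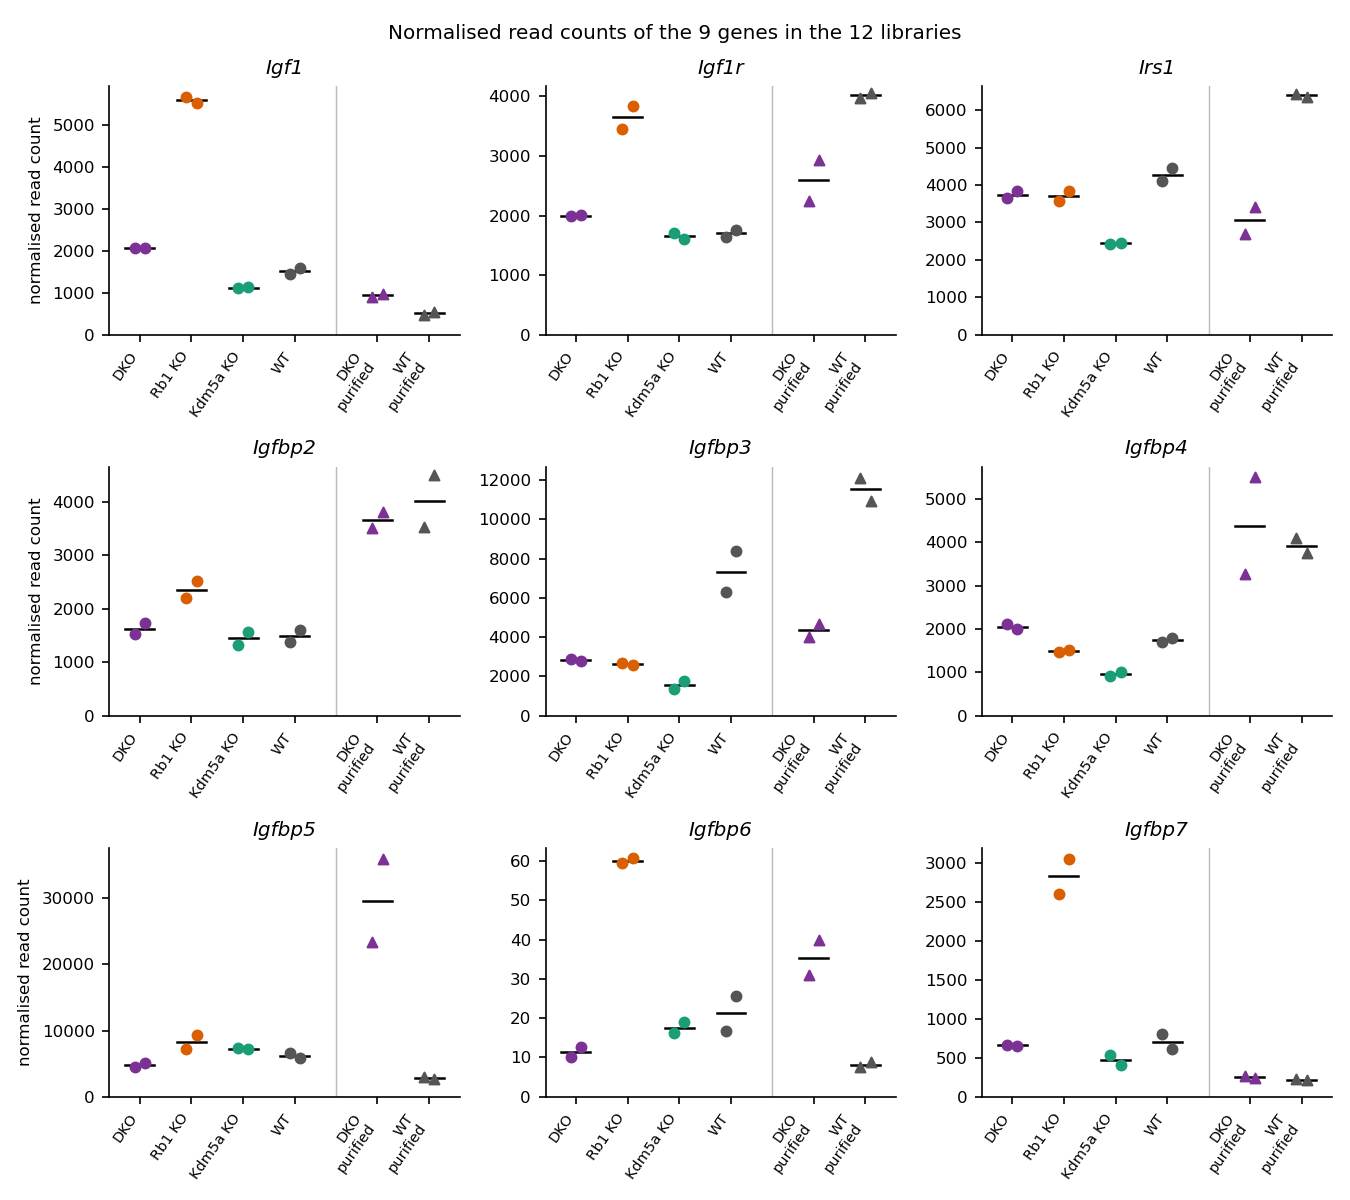
Normalised read count (y axis, linear from 0) of each of the 9 genes in each library. Points are libraries, circles for mixed cultures and triangles for purified myotubes, and lines are means of n = 2. Igf1 and Igfbp7 stand highest in the Rb1 KO libraries, Igfbp3 is highest in WT on both sides, and Igfbp5 reaches 23374 and 35954 in DKO purified myotubes.

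Compared per kilobase of exon, Igfbp2, Igfbp3, Igfbp4 and Igfbp5 outranked the receptor in every group, and Igfbp6 ranked below it in every group. Igfbp7 outranked the receptor except in WT purified myotubes, where it was at 181 per kb against 239 for Igf1r. In DKO mixed cultures Igfbp3, Igfbp2 and Igfbp5 led at 907, 882 and 788 normalised counts per kb, and neighbours in this order overlapped between libraries. In Rb1 KO cultures Igfbp7 led at 2341 per kb, ahead of Igfbp5 at 1381 and Igfbp2 at 1274, and the last of these could not be separated from Igfbp5. In Kdm5a KO cultures Igfbp5 led at 1209 per kb, and Igfbp3 at 499.5 overlapped with Igfbp7 at 392. In WT mixed cultures Igfbp3 led at 2342 per kb, more than the 1033 of Igfbp5, and no neighbours in the order overlapped. In purified myotubes Igfbp5 led in DKO at 4939 per kb, while Igfbp3 led in WT at 3688 per kb, and again no neighbours overlapped. Igf1r was at 119 per kb in DKO, 217 in Rb1 KO, 98.6 in Kdm5a KO and 102 in WT mixed cultures, and at 154 in DKO against 239 in WT purified myotubes. Igfbp6 was last in every group, from 7.26 per kb in WT purified to 54.0 in Rb1 KO mixed cultures.

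The makeup of the pool of the 6 Igfbp messengers varied with the group, although Rb1 KO and Kdm5a KO libraries overlapped in the share of Igfbp3. Igfbp3 made up 26.3% and 24.2% of the summed level per kb in DKO, 14.9% and 12.4% in Rb1 KO, 14.4% and 17.5% in Kdm5a KO and 41.0% and 49.0% in WT mixed cultures. Igfbp7 made up 15.7% and 14.6% in DKO, 37.2% and 37.9% in Rb1 KO, 14.6% and 10.6% in Kdm5a KO and 13.5% and 9.28% in WT. WT was thus the group in which Igfbp3 held the largest share, and Rb1 KO the group in which Igfbp7 did. In purified myotubes Igfbp5 made up 48.3% and 54.3% in DKO against 6.76% and 5.95% in WT, and Igfbp3 made up 15.9% and 13.6% in DKO against 52.3% and 47.2% in WT. The summed level per kb was 3533 and 3661 in DKO, 5807 and 6664 in Rb1 KO, 3040.1 and 3197 in Kdm5a KO and 4907 and 5456 in WT mixed cultures, and 8057 and 11033 in DKO against 7404 and 7412 in WT purified myotubes. These shares are descriptions, with no test, and shares that sum to 100 move together.

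**Figure D2:**
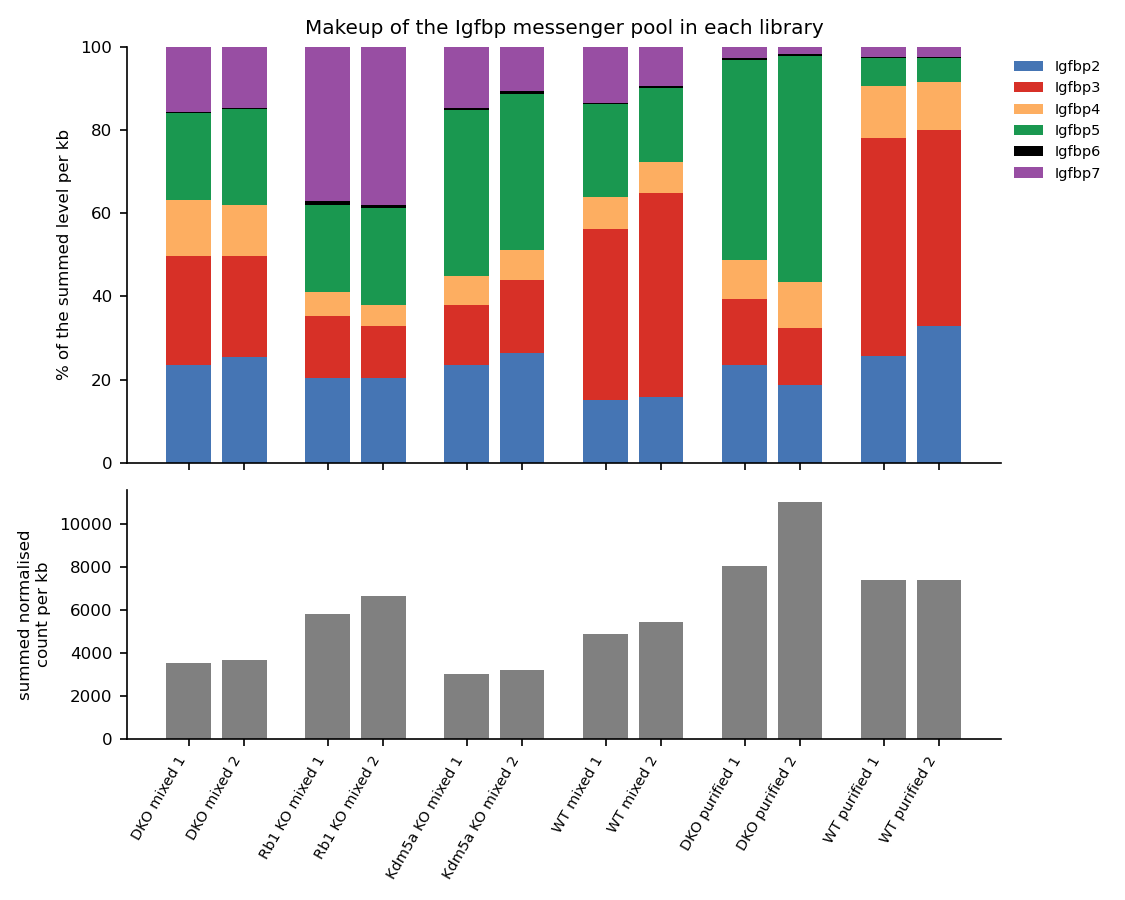
Upper panel: percent of the summed normalised count per kb (y axis) that each of the 6 Igfbp genes takes in each library. Lower panel: that sum (y axis, normalised counts per kb). Igfbp3 takes the largest share in WT libraries, Igfbp7 in Rb1 KO libraries and Igfbp5 in DKO purified libraries.

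In Rb1 KO against WT mixed cultures all 9 genes changed, 6 higher and 3 lower. Of the 17199 genes tested, 36.8% were higher and 34.3% lower at an adjusted p under 0.05 (limma, Benjamini-Hochberg over all genes), so a call is common in this comparison and its size says more. The median log2 change of the 9 was 0.66, beside 0.03 over all genes. The ligand and the receptor rose together. Igf1, which signals through IGF1R, had 5667 and 5526 in Rb1 KO cultures against 1442 and 1584 in WT, a ratio of means of 3.7 (log2 change 1.89 ± 0.063, adjusted p = 4.36e-11). Igf1r had 3458 and 3839 in Rb1 KO against 1648 and 1764 in WT, a ratio of 2.14 (log2 change 1.10 ± 0.069, adjusted p = 1.58e-08). Both Rb1 KO libraries were above both WT libraries for each gene. Irs1, the adaptor that couples the receptor to PI3-kinase, went slightly the other way, with 3570.1 and 3846 in Rb1 KO against 4092 and 4459.9 in WT (log2 change -0.21 ± 0.062, adjusted p = 0.00983).

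Among the binding proteins, Igfbp7, a related secreted protein with low affinity for IGFs, had the largest log2 increase of the 9 in Rb1 KO cultures. It had 2609 and 3052 in Rb1 KO against 800.4 and 612 in WT, a ratio of 4.01 (log2 change 2.01 ± 0.14, adjusted p = 4.45e-08). Igfbp6, which prefers IGF2 over IGF1, had 59.4 and 60.6 in Rb1 KO against 16.8 and 25.6 in WT (log2 change 1.49 ± 0.39, adjusted p = 0.00432), from few reads. Igfbp2 also rose, with 2196 and 2512 in Rb1 KO against 1376 and 1606 in WT (log2 change 0.66 ± 0.10, adjusted p = 8.47e-05). All 9 genes were without overlap between the Rb1 KO and WT libraries, so this does not set these 3 apart. The share of all genes without overlap was not counted. Igfbp5, a matrix-associated carrier made during myoblast differentiation, had 7273 and 9317 in Rb1 KO against 6539 and 5874 in WT (log2 change 0.41 ± 0.10, adjusted p = 0.00244). Igfbp3, the main carrier of IGFs in blood, fell to 2706 and 2595 in Rb1 KO cultures, against 6295 and 8368 in WT (log2 change -1.45 ± 0.12, adjusted p = 2.5e-07). Igfbp4, which inhibits IGF action until it is cut by the protease PAPP-A, had 1465 and 1521 in Rb1 KO against 1699 and 1793 in WT (log2 change -0.23 ± 0.072, adjusted p = 0.0135). Igfbp3 was thus the binding protein that fell most, and the decrease of Igfbp4 was small. The calls of Irs1 and Igfbp4 were the frail ones. Without WT replicate 2 the Irs1 change was -0.14 and that of Igfbp4 -0.19, and without Rb1 KO replicate 1 they were -0.15 and -0.20. None of these 4 passed, and adjusted p ranged from 0.00177 to 0.312 over the 16 alternatives for Irs1 and from 0.00741 to 0.35 over the 16 alternatives for Igfbp4. Igfbp5, from 2.19e-05 to 0.0929 over the 16 alternatives, missed the threshold with no intensity trend or with all 12 libraries in one fit.

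The Rb1 KO cultures also differed from WT in markers of cell type. All 12 fibroblast markers rose, with summed levels of 99771 and 117933 in Rb1 KO against 13351 and 13909.6 in WT. All 15 myotube markers fell, with sums of 68341 and 69067 in Rb1 KO against 423573 and 456614 in WT. All 10 proliferation markers rose, with sums of 19436 and 21704 in Rb1 KO against 775 and 805 in WT. No marker of these 3 lists was without reads in either group. Of 5 cartilage and bone markers tested 3 rose, with sums over the list of 1988 and 2159.6 in Rb1 KO against 355 and 495 in WT. The part of these shifts in the changes of Igf1, Igf1r and the Igfbp genes was not tested, and in bulk RNA fewer cells of a type and less RNA per cell cannot be told apart.

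The sequences just upstream of the ligand, the receptor, Igfbp7 (the largest log2 increase with Rb1 loss) and Igfbp3 (the largest decrease) are shown so that a reader can see what they hold. They are the 250 bases before the annotated start in RefSeq on GRCm38.p6, written in the direction of the gene. Bases just after the start lay in a GENCODE transcript of the gene for Igf1, Igfbp3, Igfbp5 and Igfbp7. They did not for Igf1r, Igfbp6, Irs1 and an Igfbp2 start, so those starts are less certain. Capitals mark matches, on either strand, to CANNTG (the E-box, the family of sites that MyoD and its relatives bind) or TATAAA (the only form of the TATA box searched). None of the 9 genes held TTTCGCGC, TTTGGCGC, TTTCCCGC or TTTGCCGC, the E2F motifs searched.
Igf1 promoter, chr10:87860861-87861110, plus strand: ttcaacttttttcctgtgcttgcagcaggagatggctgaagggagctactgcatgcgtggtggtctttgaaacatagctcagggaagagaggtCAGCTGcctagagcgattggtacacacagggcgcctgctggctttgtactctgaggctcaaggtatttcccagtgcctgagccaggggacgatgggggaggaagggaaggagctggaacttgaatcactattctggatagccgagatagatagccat
Igf1r promoter, chr7:67952007-67952256, plus strand: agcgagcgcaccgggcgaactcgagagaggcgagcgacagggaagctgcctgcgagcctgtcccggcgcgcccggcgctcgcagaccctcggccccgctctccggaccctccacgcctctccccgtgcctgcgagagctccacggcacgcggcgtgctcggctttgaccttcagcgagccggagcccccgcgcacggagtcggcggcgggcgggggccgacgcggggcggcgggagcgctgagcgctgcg
Igfbp7 promoter, chr5:77408046-77408295, minus strand: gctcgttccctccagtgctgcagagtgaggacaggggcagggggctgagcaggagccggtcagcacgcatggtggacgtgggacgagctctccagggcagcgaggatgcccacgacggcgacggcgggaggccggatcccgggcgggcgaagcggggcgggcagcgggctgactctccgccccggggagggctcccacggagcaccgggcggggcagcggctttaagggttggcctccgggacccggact
Igfbp3 promoter, chr11:7213924-7214173, minus strand: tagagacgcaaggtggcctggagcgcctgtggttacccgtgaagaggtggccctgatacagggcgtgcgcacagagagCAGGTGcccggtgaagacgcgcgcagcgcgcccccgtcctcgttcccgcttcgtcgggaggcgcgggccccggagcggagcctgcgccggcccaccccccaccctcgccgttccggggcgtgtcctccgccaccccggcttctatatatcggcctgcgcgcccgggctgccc
Igf1 was the only one of the 9 with CAGCTG, which is its own reverse complement, 157 bases before the start, a sequence found in 13.0% of 32817 promoters of this length. Igf1r and Igfbp7 had no CANNTG at all, which 66.2% of promoters have. Igfbp3 had CAGGTG 172 bases before the start. Igfbp6, which rose more than Igf1r from few reads and is not printed, held CATATG 173 and a match to TATAAA 148 bases before the start. The E2F motifs occurred in 1.86% and TATAAA in 12.4% of promoters. A match is a description of letters and not a site of binding, and an absent one speaks only of this window.

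In Kdm5a KO against WT mixed cultures 5 of the 9 genes fell and none rose, against 13.8% of all genes lower and 13.4% higher in the same fit (limma). The median log2 change of the 9 was -0.43, beside 0.0054 over all genes. Igfbp3 had the largest change, with 1374 and 1753 in Kdm5a KO against 6295 and 8368 in WT, a ratio of means of 0.213 (log2 change -2.22 ± 0.12, adjusted p = 1.93e-07). Igfbp4 had 922 and 1013 in Kdm5a KO against 1699 and 1793 in WT (log2 change -0.85 ± 0.072, adjusted p = 5.36e-06). Irs1 had 2422 and 2449.7 in Kdm5a KO against 4092 and 4459.9 in WT (log2 change -0.81 ± 0.062, adjusted p = 2.62e-06). For these 3 genes, and also for Igf1 and Igfbp7, the Kdm5a KO libraries were the lowest of the 8 mixed libraries. Igf1 fell less, with 1120.4 and 1125 in Kdm5a KO against 1442 and 1584 in WT (log2 change -0.43 ± 0.063, adjusted p = 0.000348). Igfbp7 had 537 and 410.3 in Kdm5a KO against 800.4 and 612 in WT (log2 change -0.57 ± 0.14, adjusted p = 0.00977). The Igfbp7 call was lost without WT replicate 1 (-0.38) or Kdm5a KO replicate 2 (-0.38), and its adjusted p ranged from 0.000452 to 0.109 over the 16 alternatives.

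The other 4 genes did not pass in Kdm5a KO against WT. Igf1r had 1702 and 1608 in Kdm5a KO against 1648 and 1764 in WT, and the difference was -0.044 ± 0.069 on the log2 scale. Igfbp2 had 1327 and 1568 in Kdm5a KO against 1376 and 1606 in WT, a difference of -0.044 ± 0.10. Both sets of libraries overlapped. Igfbp5 had 7299 and 7221 in Kdm5a KO against 6539 and 5874 in WT (log2 change 0.23 ± 0.10, adjusted p = 0.109), with no overlap. Igfbp6 had 16.3 and 18.9 in Kdm5a KO against 16.8 and 25.6 in WT, a difference of -0.23 ± 0.39. Of the 15 myotube markers 2 rose and 9 fell in Kdm5a KO, with sums of 398255 and 419530.4 in Kdm5a KO against 423573 and 456614 in WT. Of the 12 fibroblast markers 5 rose and 4 fell, with sums of 12036 and 12472 in Kdm5a KO against 13351 and 13909.6 in WT. Of the 10 proliferation markers 4 rose and 1 fell, with sums of 1317 and 1348 in Kdm5a KO against 775 and 805 in WT. Their part in the decreases was not tested.

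In DKO against WT mixed cultures 3 genes rose and 3 fell, in a comparison in which 34.0% of all genes were higher and 33.9% lower (limma). The counts of both single knockouts and of DKO share the WT libraries, so the values are given side by side and not as independent evidence. Igf1 had 2056 and 2063 in DKO against 1442 and 1584 in WT, a ratio of 1.36 (log2 change 0.45 ± 0.063, adjusted p = 3.92e-05), where the ratio for Rb1 KO was 3.7. Igfbp3 had 2907 and 2773 in DKO against 6295 and 8368 in WT, a ratio of 0.387 (log2 change -1.35 ± 0.12, adjusted p = 6.01e-07). These were the largest changes that passed in DKO. Igf1r had 1984 and 2004 in DKO against 1648 and 1764 in WT (log2 change 0.23 ± 0.069, adjusted p = 0.0114). Irs1 had 3649 and 3835 in DKO against 4092 and 4459.9 in WT (log2 change -0.19 ± 0.062, adjusted p = 0.0153). Igfbp4 had 2112 and 2004 in DKO against 1699 and 1793 in WT (log2 change 0.24 ± 0.072, adjusted p = 0.011), the sole binding protein that rose. Igfbp5 had 4408 and 5052 in DKO against 6539 and 5874 in WT (log2 change -0.39 ± 0.10, adjusted p = 0.00349). Igfbp2, Igfbp6 and Igfbp7 did not pass, with log2 differences of 0.13 ± 0.10, -0.83 ± 0.39 and -0.09 ± 0.14. All 15 myotube markers fell, with sums of 184154 and 199130.2 in DKO against 423573 and 456614 in WT. Of the 12 fibroblast markers 9 rose and 1 fell, with sums of 17139.6 and 18054 in DKO against 13351 and 13909.6 in WT. All 10 proliferation markers rose, with sums of 38598 and 38857 in DKO against 775 and 805 in WT. Their part in the changes was not tested.

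Several of the DKO calls were small and rested on single libraries or on the scaling. Without WT replicate 1 the Igf1r change was 0.18 and that of Igfbp4 0.20, while Igfbp6 at -1.12 then passed, as it did with no intensity trend. Without DKO replicate 2 Igf1r was at 0.22, and without DKO replicate 1 Igfbp4 was at 0.20 and Irs1 at -0.16. Without WT replicate 2 Irs1 was at -0.13. Apart from Igfbp6, none of these passed. Adjusted p ranged from 0.000787 to 0.167 over the 16 alternatives for Igf1r, from 0.00749 to 0.811 over the 16 alternatives for Irs1, from 0.00107 to 0.335 over the 16 alternatives for Igfbp4 and from 0.00145 to 0.308 over the 15 alternatives for Igfbp6. Quantile normalisation, which lowered the median of all genes by 0.141, left Irs1 at -0.017 and Igfbp5 at -0.16 without a call, Igfbp5 within a range of adjusted p from 0.000124 to 0.195 over the 16 alternatives.

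**Figure D3:**
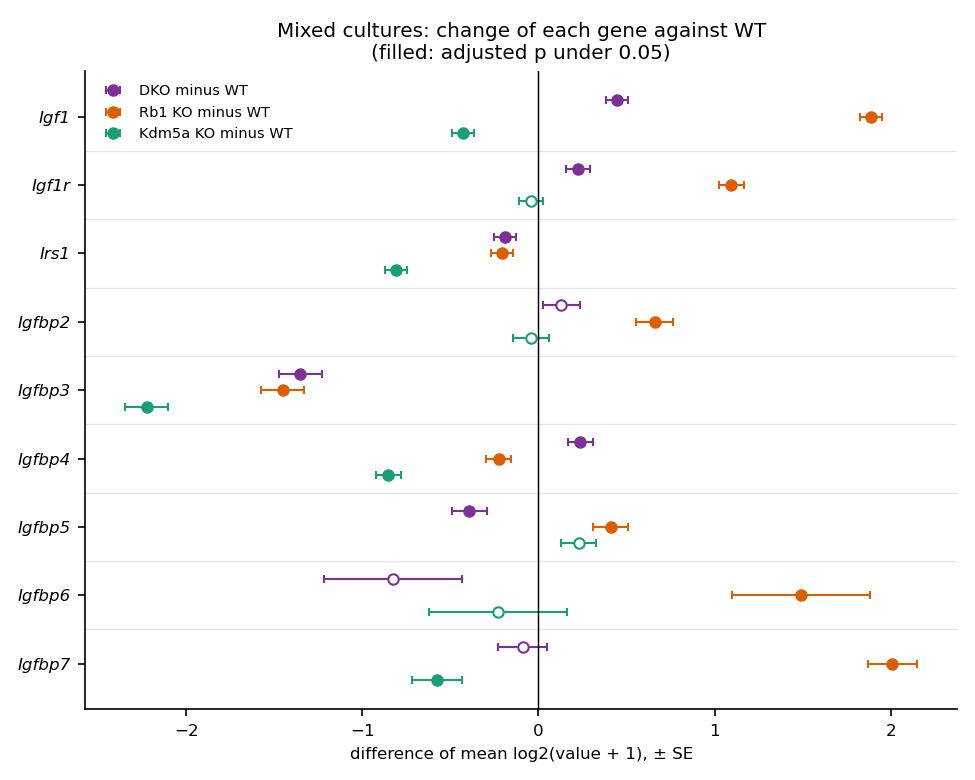
Log2 change (x axis, difference of mean log2 of the value plus 1, bars ± SE) of each gene in DKO, Rb1 KO and Kdm5a KO mixed cultures against WT, n = 2 libraries a group. Filled points passed an adjusted p under 0.05. Igfbp3 is left of 0 in all 3 comparisons, and the Rb1 KO points of Igf1, Igf1r, Igfbp6 and Igfbp7 stand apart to the right.

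Setting DKO against each single knockout asks what the loss of the second gene adds. In DKO against Rb1 KO 6 of the 9 genes fell and 1 rose, where 24.2% of all genes were lower and 23.1% higher (limma). The median log2 change of the 9 was -0.80, beside -0.01 over all genes. Igf1 had 2056 and 2063 in DKO against 5667 and 5526 in Rb1 KO, a ratio of 0.368 (log2 change -1.44 ± 0.063, adjusted p = 2.65e-09). Igfbp7 had 669 and 646 in DKO against 2609 and 3052 in Rb1 KO, a ratio of 0.232 (log2 change -2.10 ± 0.14, adjusted p = 1.26e-07). Igfbp6 had 9.99 and 12.6 in DKO against 59.4 and 60.6 in Rb1 KO, a ratio of 0.189 (log2 change -2.32 ± 0.39, adjusted p = 0.000362). For 8 of the 9 genes the DKO and Rb1 KO libraries did not overlap, and the share of all genes without overlap was not counted. Igf1r fell by 0.87, Igfbp5 by 0.80 and Igfbp2 by 0.53 on the log2 scale in DKO relative to Rb1 KO, with adjusted p of 5.87e-07, 2.68e-05 and 0.00105 (limma). Igfbp4 rose by 0.46 (adjusted p = 0.000188, limma). Irs1 and Igfbp3 did not pass, with differences of 0.014 ± 0.062 and 0.10 ± 0.12. Fibroblast markers were lower in DKO than in Rb1 KO for 9 of 12 genes, with sums of 17139.6 and 18054 in DKO against 99771 and 117933 in Rb1 KO, and 14 of 15 myotube markers were higher, with sums of 184154 and 199130.2 in DKO against 68341 and 69067 in Rb1 KO. Proliferation markers were higher for 6 of 10 and lower for none. The part of these markers in the changes was not tested.

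In DKO against Kdm5a KO 6 genes rose and 1 fell, where 33.7% of all genes were higher and 33.4% lower (limma). Igfbp4 had 2112 and 2004 in DKO against 922 and 1013 in Kdm5a KO, a ratio of 2.13 (log2 change 1.09 ± 0.072, adjusted p = 3.38e-08). Igf1 had 2056 and 2063 in DKO against 1120.4 and 1125 in Kdm5a KO, a ratio of 1.83 (log2 change 0.87 ± 0.063, adjusted p = 7.55e-08). Igfbp3 had 2907 and 2773 in DKO against 1374 and 1753 in Kdm5a KO, a ratio of 1.82 (log2 change 0.87 ± 0.12, adjusted p = 3.66e-05). For 8 of the 9 genes the DKO and Kdm5a KO libraries did not overlap, and the share of all genes without overlap was not counted. Irs1 rose by 0.62, Igf1r by 0.27 and Igfbp7 by 0.48 on the log2 scale, and Igfbp5 fell by 0.62, with adjusted p of 1.64e-06, 0.00393, 0.0086 and 0.000108 (limma). Igfbp2 at 0.17 ± 0.10 and Igfbp6 at -0.60 ± 0.39 did not pass. Without Kdm5a KO replicate 2 the Igfbp7 change was 0.29 and did not pass, within a range of adjusted p from 0.000886 to 0.12 over the 16 alternatives. Of the 15 myotube markers 3 were higher and 11 lower in DKO than in Kdm5a KO, with sums of 184154 and 199130.2 in DKO against 398255 and 419530.4 in Kdm5a KO. Of the 12 fibroblast markers 9 were higher and 1 lower, and all 10 proliferation markers were higher, with sums of 38598 and 38857 in DKO against 1317 and 1348 in Kdm5a KO. The part of these markers was not tested.

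Whether Kdm5a loss had the same effect with and without Rb1 was tested as the difference of those effects, (DKO minus Rb1 KO) minus (Kdm5a KO minus WT). All 9 genes passed, 3 with a positive and 6 with a negative difference, where 18.8% of all genes were positive and 19.5% negative (limma). The positive ones were those that fell with Kdm5a loss in Rb1-intact cells and did not fall in Rb1-deficient cells. Igfbp3 changed by 0.10 with Kdm5a loss in Rb1-deficient cultures and by -2.22 in Rb1-intact cultures, a difference of 2.32 ± 0.17 (adjusted p = 6.05e-07, limma). Igfbp4 changed by 0.46 in Rb1-deficient and by -0.85 in Rb1-intact cultures, a difference of 1.31 ± 0.10 (adjusted p = 8.82e-07, limma). Irs1 changed by 0.014 in Rb1-deficient and by -0.81 in Rb1-intact cultures, a difference of 0.82 ± 0.088 (adjusted p = 1.31e-05, limma). The negative ones fell more, or fell where they otherwise did not pass. The differences were -2.09 ± 0.56 for Igfbp6, -1.53 ± 0.20 for Igfbp7, -1.03 ± 0.14 for Igfbp5, -1.01 ± 0.089 for Igf1, -0.83 ± 0.10 for Igf1r and -0.49 ± 0.15 for Igfbp2, with adjusted p of 0.0101, 7.37e-05, 9.8e-05, 2.68e-06, 3.21e-05 and 0.0197 (limma). The Igfbp2 call was lost in 6 of the 19 alternatives, with no intensity trend, with all 12 libraries in one fit, and without WT replicate 1 (-0.37), Kdm5a KO replicate 2 (-0.37), Rb1 KO replicate 2 (-0.39) or DKO replicate 1 (-0.40), with adjusted p from 0.00121 to 0.156 over the 19 alternatives. Markers of cell type differed in the same test. All 15 myotube markers had a positive difference, with a median of 1.78. Of the 12 fibroblast markers 10 had a negative difference and none a positive one, with a median of -2.33, and of the 10 proliferation markers 2 were positive and 1 negative. Their part in the differences of the 9 genes was not tested.

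Purified myotubes gave the largest change of any of the 9 genes. Igfbp5 had 23374 and 35954 in DKO against 3005 and 2649.9 in WT purified myotubes, a ratio of means of 10.5 (log2 change 3.36 ± 0.27, adjusted p = 0.00171). In all, 3 genes rose and 2 fell in DKO purified myotubes, where 21.0% of the 16670 genes tested were higher and 18.6% lower (limma). The median log2 change of the 9 was 0.11, beside -0.046 over all genes. Igf1 had 888 and 979.5 in DKO against 476 and 538 in WT (log2 change 0.88 ± 0.20, adjusted p = 0.0236). Igfbp6 had 30.9 and 39.8 in DKO against 7.44 and 8.7 in WT (log2 change 1.99 ± 0.44, adjusted p = 0.0219). The WT values, from 4 and 7 reads, lay below the minimum mean of 10. Igfbp6 was thus tested only through its DKO libraries, and its call is weak. Igfbp3 had 4004 and 4681 in DKO against 12130.1 and 10957 in WT, a ratio of 0.376 (log2 change -1.41 ± 0.20, adjusted p = 0.00638). The ratio of Igfbp3 in mixed cultures was 0.387, so both kinds of library gave a like decrease. Irs1 had 2682 and 3419.8 in DKO against 6443 and 6346 in WT, a ratio of 0.477 (log2 change -1.08 ± 0.21, adjusted p = 0.0146).

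The other 4 genes did not pass in purified myotubes. Igf1r had 2251 and 2928 in DKO against 3979.5 and 4054 in WT, and both DKO libraries were lower (log2 change -0.65 ± 0.21, adjusted p = 0.0642). Igfbp4 had 3266 and 5515 in DKO against 4104 and 3754 in WT, so that 1 DKO library lay below and 1 above both WT libraries. Igfbp2 had 3516 and 3812 in DKO against 3526 and 4495 in WT, and the libraries overlapped. Igfbp7 had 260.2 and 245 in DKO against 221 and 216 in WT, a difference of 0.21 ± 0.22. Igfbp7 was lower in all 4 purified libraries than in any of the 8 mixed libraries, but RNA selection, amplification and sequencing instrument differ with purification and cannot be told apart from it.

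Most of these calls were lost when either WT library was left out, although the estimates kept their direction. Without WT replicate 1 or without WT replicate 2 Igfbp5 was the only gene of the 9 that passed. Igf1 was then at 0.79 and 0.97, Irs1 at -1.07 and -1.09, Igfbp3 at -1.34 and -1.49 and Igfbp6 at 1.89 and 2.09. In those fits the DKO pair, the more variable one, alone gave the spread. Without DKO replicate 1 or 2, 7 genes passed. Igf1r was then at -0.46 and -0.84, and Igfbp4 at 0.49 and -0.27, with opposite signs. Adjusted p ranged from 5.92e-05 to 0.317 over the 15 alternatives for Igf1, from 3.11e-05 to 0.223 over the 15 alternatives for Irs1, from 3.11e-05 to 0.154 over the 15 alternatives for Igfbp3, from 0.000743 to 0.14 over the 14 alternatives for Igfbp6, from 0.000846 to 0.44 over the 15 alternatives for Igf1r and from 0.00751 to 0.964 over the 15 alternatives for Igfbp4. Igfbp5 stayed between 3.05 and 3.98 on the log2 scale with an adjusted p of at most 0.0232 over the 15 alternatives.

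The sequence upstream of Igfbp5 is shown because its level changed most, in the same form as above, with its sole CANNTG match, CAACTG, in capitals 77 bases before the start.
Igfbp5 promoter, chr1:72874866-72875115, minus strand: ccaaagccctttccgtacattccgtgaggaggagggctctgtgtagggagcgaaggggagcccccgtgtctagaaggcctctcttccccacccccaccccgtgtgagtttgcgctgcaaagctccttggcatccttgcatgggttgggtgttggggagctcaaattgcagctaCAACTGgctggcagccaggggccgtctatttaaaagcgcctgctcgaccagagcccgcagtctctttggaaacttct
It held no exact TATAAA, and variants of that sequence were not searched.

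The purified DKO myotubes still carried proliferation markers. All 10 rose, with sums of 27532 and 38008 in DKO against 992 and 1046 in WT purified myotubes. Of the 15 myotube markers 1 rose and 8 fell, with sums of 240404 and 242519 in DKO against 633840.1 and 651122 in WT. Of the 10 fibroblast markers tested 5 rose and 2 fell, with sums of 27298 and 35447 in DKO against 17998 and 21826 in WT, where Lum had no reads. Single fibroblast markers went different ways. Postn stood at 119 and 91 in DKO against 22.3 and 12.4 in WT purified myotubes, the latter from 12 and 10 reads. Col3a1 was lower in DKO, at 940 and 638 against 2039 and 2249 in WT. Col1a2 stood at 7046 and 5049 in DKO against 5308 and 6315 in WT. Of 7 cartilage and bone markers tested 3 rose and 1 fell, with sums over the list of 2166 and 3281 in DKO against 623 and 737 in WT. The part of these markers in the change of Igfbp5 was not tested.

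Whether the DKO effect was the same in purified myotubes and mixed cultures was tested over all 12 libraries, as the purified difference minus the mixed one. Of the 9 genes 2 had a positive and 2 a negative difference, where 11.6% of 17273 genes were positive and 13.2% negative (limma). Igfbp5 changed by 3.36 in purified and by -0.39 in mixed libraries, a difference of 3.75 ± 0.27 (adjusted p = 2.51e-05, limma). Igfbp6 changed by 1.99 in purified and by -0.83 in mixed libraries, a difference of 2.82 ± 0.50 (adjusted p = 0.00317, limma). These binding proteins thus went in opposite directions in the estimates from the library types. The mixed change of Igfbp6 did not pass, however, and its purified change rested on 4 and 7 WT reads. Irs1 changed by -1.08 in purified and by -0.19 in mixed libraries (difference -0.89 ± 0.17, adjusted p = 0.00489, limma). Igf1r changed by -0.65 in purified and by 0.23 in mixed libraries (difference -0.87 ± 0.18, adjusted p = 0.00694, limma). For Igfbp3 the difference was -0.059 ± 0.23, for Igf1 0.43 ± 0.15, for Igfbp7 0.30 ± 0.24, for Igfbp2 -0.25 ± 0.21 and for Igfbp4 -0.12 ± 0.28, and none of these passed. Igf1 passed without DKO purified replicate 1 (0.50) or 2 (0.36), with adjusted p from 0.00263 to 0.208 over the 18 alternatives, and Igfbp4 passed without DKO purified replicate 2 (-0.50), with adjusted p from 0.00289 to 0.921 over the 18 alternatives.

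**Figure D4:**
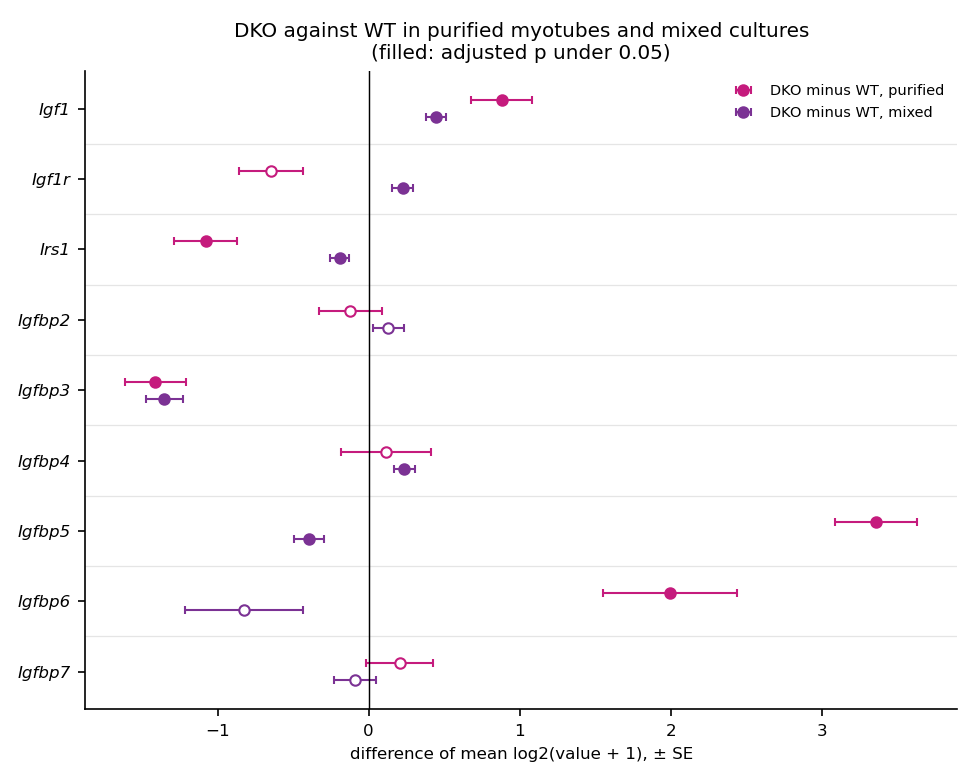
Log2 change (x axis, difference of mean log2 of the value plus 1, bars ± SE) of each gene in DKO against WT, in purified myotubes and in mixed cultures, n = 2 libraries a group. Filled points passed an adjusted p under 0.05. Igfbp5 is at 3.36 in purified and -0.39 in mixed libraries, while the Igfbp3 points, at -1.41 and -1.35, nearly coincide.

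The other genes of the pathway came from a list of 64, of which 56 were tested in mixed cultures. In Rb1 KO against WT 22 rose and 20 fell with a median log2 change of 0.0033, in Kdm5a KO against WT 6 rose and 16 fell with a median of -0.073, and in DKO against WT 18 rose and 25 fell with a median of -0.18. In purified DKO against WT 9 of 57 rose and 9 fell, with a median of -0.011. Among all genes 36.8% rose and 34.3% fell in Rb1 KO, 13.4% and 13.8% in Kdm5a KO, 34.0% and 33.9% in DKO mixed cultures and 21.0% and 18.6% in DKO purified myotubes. With calls this common, a count of calls in a pathway list says little about that list. The medians of all genes in these comparisons were 0.03, 0.0054, -0.0036 and -0.046.

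Igf2, the ligand that myoblasts make themselves, was the most abundant of these messengers and fell in all 3 mixed comparisons with WT. It had 38538 and 35964 in DKO, 25817 and 26844 in Rb1 KO, 43433 and 41939.7 in Kdm5a KO and 59243 and 57783 in WT mixed cultures. The log2 change was -0.65 ± 0.047 in DKO, -1.15 ± 0.047 in Rb1 KO and -0.46 ± 0.047 in Kdm5a KO, with adjusted p of 6.84e-08, 2.5e-10 and 2.41e-05 (limma). Igf1 and Igf2 thus moved in opposite directions in Rb1 KO and in DKO cultures. In purified myotubes Igf2 had 57818 and 157232 in DKO against 130339.5 and 118318 in WT, with DKO libraries on both sides of WT. Igf2 shares exons with Igf2os and Gm49394, so its counts are uncertain. Igf2r, which clears IGF2, was at 5759.5 and 5852 in DKO, 5916 and 6009 in Rb1 KO, 5533 and 5200.5 in Kdm5a KO and 6810.3 and 6606 in WT mixed cultures, and fell in each comparison with WT (-0.21, -0.17 and -0.32 in that order). Insr, the insulin receptor, rose in Kdm5a KO, with 904 and 929.8 against 665 and 672 in WT (log2 change 0.46 ± 0.088, adjusted p = 0.00223). It did not pass in DKO (-0.18 ± 0.088) or Rb1 KO (0.19 ± 0.088). Ins1, Ins2 and Insrr did not reach the filter.

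The proteases that release IGFs from binding proteins, and the stanniocalcins that inhibit them, included genes that changed more than any of the 9. Pappa, whose product cuts IGFBP4, had 1312 and 1539 in Rb1 KO against 38.3 and 27.7 in WT (log2 change 5.40 ± 0.23, adjusted p = 4.17e-10). In DKO cultures Pappa had 63.6 and 79, and it fell by 4.31 on the log2 scale relative to Rb1 KO (adjusted p = 1.67e-08, limma). It fell in DKO purified myotubes, with 35.8 and 40.8 against 80 and 118 in WT (log2 change -1.32 ± 0.35, adjusted p = 0.0362). Pappa was thus high in Rb1 KO cultures, like Igf1 and Igfbp7. Its relative Pappa2, which cuts IGFBP3 and IGFBP5, went the other way, with 50.5 and 49 in DKO, 217 and 202 in Rb1 KO, 263 and 305 in Kdm5a KO and 856 and 868 in WT mixed cultures. Its log2 change was -4.09 ± 0.14 in DKO, -2.04 ± 0.14 in Rb1 KO and -1.60 ± 0.14 in Kdm5a KO, all past the test. In purified myotubes it had 27.6 and 29.3 in DKO against 1023 and 1027 in WT (log2 change -5.12 ± 0.24, adjusted p = 0.000902). It shares an exon with 1600012P17Rik on the same strand, so its counts are uncertain.

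Adam12, a metalloprotease that can cut IGFBP3 and IGFBP5, had 2923 and 3011 in Rb1 KO against 1330.5 and 1268 in WT (log2 change 1.19 ± 0.066, adjusted p = 4.91e-09). Htra1, a serine protease, had 56.8 and 70.3 in DKO against 385 and 425 in WT mixed cultures (log2 change -2.66 ± 0.15, adjusted p = 7.54e-09) and 94.3 and 99.4 in DKO against 1373 and 1748 in WT purified myotubes (log2 change -3.99 ± 0.23, adjusted p = 0.00112). The stanniocalcins moved apart in DKO. Stc1 had 608 and 804 in DKO against 3.72 and 2.48 in WT purified myotubes (log2 change 7.43 ± 0.36, adjusted p = 0.000902), and 282 and 305 in DKO against 44.3 and 20.2 in WT mixed cultures (log2 change 3.25 ± 0.49, adjusted p = 7.16e-05). Stc2 had 507 and 924 in DKO against 8072 and 7915 in WT purified myotubes (log2 change -3.54 ± 0.32, adjusted p = 0.00212), and 292 and 282 in DKO against 1834 and 2342 in WT mixed cultures (log2 change -2.85 ± 0.11, adjusted p = 2.2e-10). In purified myotubes Stc1 reached the minimum mean of 10 only through its DKO libraries, so its call there is weak. Stc1 shares 229 of its 4197 exon bases with Gm41192 on the other strand. Htra3 passed in Kdm5a KO against WT alone of the 4 comparisons with WT (-1.03 ± 0.27), but the difference of DKO from Kdm5a KO did not pass (log2 change 0.55 ± 0.27, adjusted p = 0.0884). Of the 7 genes of this list, 3 rose and 2 fell in Rb1 KO, 1 rose and 3 fell in Kdm5a KO, and 2 rose and 4 fell in DKO, against WT in mixed cultures. In purified DKO myotubes 2 rose and 4 fell. The shares of all genes called are those given for the pathway as a whole.

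**Figure D5:**
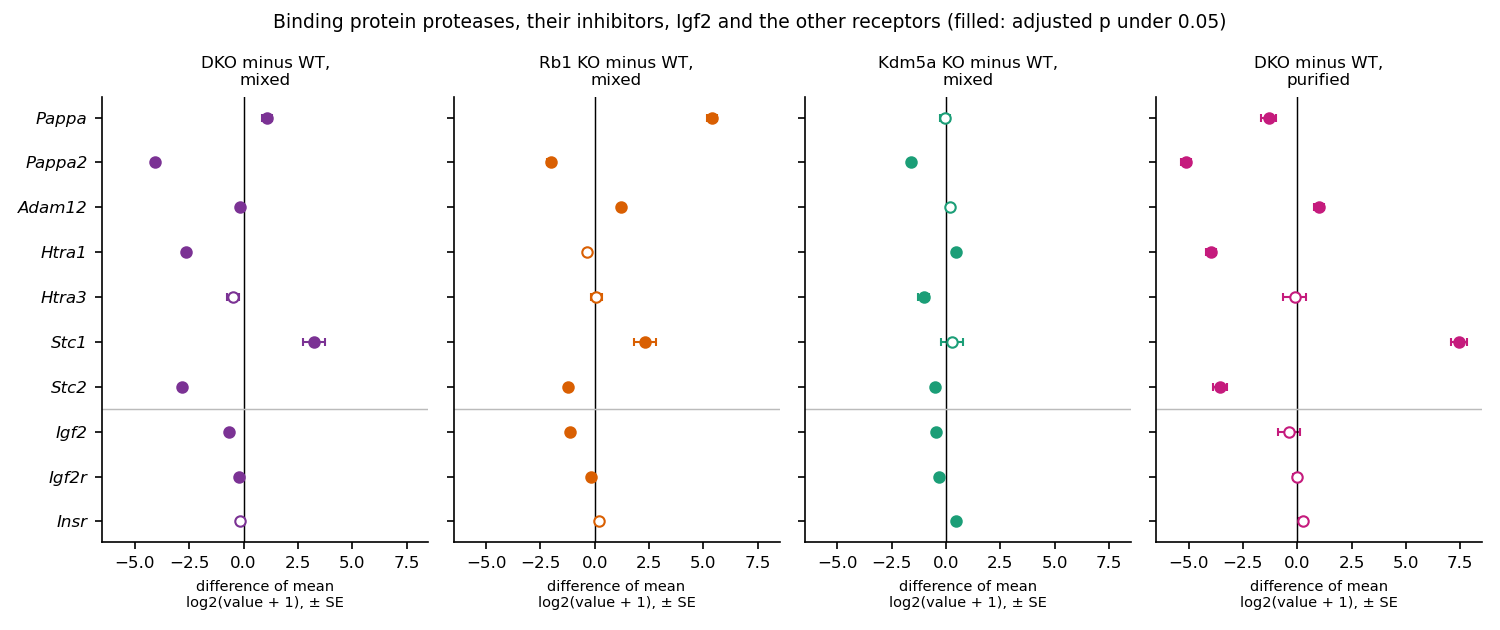
Log2 change (x axis, difference of mean log2 of the value plus 1, bars ± SE) of the binding protein proteases and stanniocalcins, and below the line Igf2, Igf2r and Insr, in 4 comparisons with WT, n = 2 libraries a group. Filled points passed an adjusted p under 0.05. Pappa stands at 5.40 in Rb1 KO, and Stc1 at 7.43 and Pappa2 at -5.12 in DKO purified myotubes.

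Among the adaptors, Irs2, the relative of Irs1, rose in DKO with 141 and 202 and in Rb1 KO with 144 and 207, against 65.8 and 53.3 in WT (log2 change 1.50 ± 0.26 in DKO and 1.53 ± 0.26 in Rb1 KO), in both of which Irs1 fell slightly. In purified myotubes Irs2 had 283 and 500.2 in DKO against 646 and 752 in WT and did not pass (log2 change -0.89 ± 0.33, adjusted p = 0.0864), and the purified effect minus the mixed one was -2.38 ± 0.43 (adjusted p = 0.00322, limma). Irs2 overlaps 9530052E02Rik on the other strand. Beside the same shares of all genes, of 13 adaptors tested 5 rose and 4 fell in Rb1 KO, 1 rose and 2 fell in Kdm5a KO, and 6 rose and 5 fell in DKO mixed cultures. Gab1, a docking protein, rose in Rb1 KO by 1.32 and in DKO by 0.97. Socs3, a feedback inhibitor of receptor signalling, rose in Kdm5a KO by 2.08, in DKO mixed cultures by 1.57 and in DKO purified myotubes by 1.84. Its estimate was also higher in Rb1 KO than in WT, so the rise was not confined to groups without Kdm5a. The effect of Kdm5a loss on Socs3 was smaller in Rb1-deficient cultures, with a difference of -1.54 ± 0.16 (adjusted p = 1.08e-05, limma). Of 14 PI3-kinase and Akt genes 8 rose and 4 fell in Rb1 KO, 2 rose and 3 fell in Kdm5a KO, and 6 rose and 5 fell in DKO mixed cultures. Phlpp2, an Akt phosphatase, rose by 1.74 in Rb1 KO and by 1.78 in DKO. Of 16 mTOR and growth genes 5 rose and 7 fell in Rb1 KO, 1 rose and 5 fell in Kdm5a KO, and 3 rose and 7 fell in DKO mixed cultures. Deptor, an mTOR inhibitor, fell by 4.25 in Rb1 KO, by 1.99 in DKO and by 2.46 in DKO purified myotubes. Rictor, of mTOR complex 2, rose by 1.53 in Rb1 KO, by 0.20 in Kdm5a KO and by 1.14 in DKO mixed cultures. In purified myotubes it had 1223 and 1228 in DKO against 1222 and 1193 in WT, and the purified effect minus the mixed one was -1.12 ± 0.13 (adjusted p = 0.000288, limma). Of the 3 IGF2 messenger binding proteins Igf2bp2 rose in Rb1 KO (0.55) and in DKO (0.58), and Igf2bp3 fell in Rb1 KO (-0.28), DKO (-0.59) and DKO purified myotubes (-1.48). The carriers Igfbp1, Igfals and Igfbpl1 did not reach the filter in mixed cultures. In purified myotubes Igfbpl1 was tested and passed as lower in DKO, with 0 reads in both DKO libraries against 14 and 22 reads in WT (adjusted p = 0.00494, limma). It reached the filter only through its WT libraries.

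The 9 genes did not share one pattern over the 12 libraries. The closest pair was Igf1 and Igfbp7, with Pearson's r of 0.961 between log2 values, and the farthest was Irs1 and Igfbp5 with r of -0.603. These correlations run over 6 groups of paired libraries of both kinds, which share genotype and preparation, and are descriptions only. The genes with the pattern most like Igf1 were Snx7 (r of 0.992), Postn (0.983) and Moxd1 (0.977), and those most like Igfbp7 were Itga8 (0.989), Msrb3 (0.985) and Maml2 (0.981). Postn is a fibroblast marker, with 1259 and 1205 in DKO, 19721 and 20093 in Rb1 KO, 309 and 339 in Kdm5a KO and 887 and 1158 in WT mixed cultures. Igfbp3 was closest to Rprm (0.966), Rps4l (0.946) and Myog (0.923), the last of which had 13308 and 12735 in DKO, 10378 and 10372 in Rb1 KO, 8748 and 8969 in Kdm5a KO and 16127 and 18252 in WT mixed cultures. Igfbp5 was closest to Podn (0.944), Junb (0.936) and Rnf43 (0.934), and Igfbp6 to Smad6 (0.939), Tnks1bp1 (0.931) and Chac1 (0.912). Igfbp4 was closest to Mxra7 (0.977), Mvb12b (0.976) and Anks1 (0.970), and Igfbp2 to Serpinf1 (0.978), Gar1 (0.977) and Rhog (0.977). Igf1r was closest to Ski (0.977), Tgfb2 (0.976) and Lamb1 (0.974), and Irs1 to Slc16a13 (0.939), Prdm8 (0.933) and Igf2bp1 (0.922). Of these, Tgfb2, Prdm8, Igf2bp1, Anks1, Junb, Itga8 and Maml2 overlap another annotated gene. Of the 9 genes themselves, Igfbp7 shares 85 of 1209 exon bases with Polr2b on the other strand, which ran from 2945 to 3728, and Irs1 spans the whole of Gm9747, 2822 bases on the other strand with values from 721 to 2302, so their counts may hold reads of these partners or lack some.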

How the data were processed

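RNA-seq was available for 12 libraries in 6 groups of 2, in 1 table of 36229 Ensembl gene IDs. Its values are a signal per gene, read counts that the authors divided by a size factor for each library with DESeq after alignment to mm9 with TopHat 1.2.0, per the submitters' processing notes. The read counter, strand setting and annotation release are not given in the sources used here. Every value above 0 was a whole multiple of its library's smallest value (100% within 0.01), so read totals of 8688604 to 41309134 were recovered. Counting precision therefore differs between libraries, and genes with few reads, such as Igfbp6, are the least certain. Symbols (30983 IDs, 85.5%) came from a table of Ensembl gene names, exon lengths and exon overlaps from GENCODE M21, and promoters from RefSeq on GRCm38.p6. No mm9 coordinates were used.

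Log2(value + 1) was tested with limma 3.58.1 (R 4.3.3, intensity trend) on genes with a mean of at least 10 in the libraries fitted. The 8 mixed libraries formed 1 fit, the 4 purified ones another, and all 12 the fit of the difference between library types. The test was two-sided with Benjamini-Hochberg adjustment over all genes tested and a threshold of 0.05. Fold changes of low genes are understated on this scale. In simulated counts for Rb1 KO against WT (17197 genes), limma recovered 88.89% of genes changed by 1 and 98.97% of those changed by 2 on the log2 scale, and called 0.112% of unchanged genes. The simulation changed only 99 and 97 tested genes by these amounts and gave every gene the same dispersion. Purified libraries were not simulated, so these rates need not hold in the data.

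Alternatives were edgeR 4.0.16 and DESeq2 1.42.0 on the recovered reads, pseudocounts of 0.5 and 10, a minimum mean of 100 or none, TMM and quantile normalisation, no intensity trend, other sets of libraries in the fit, a replicate block, and leaving out each library. The text names all 9 genes, the targeted genes, up to 3 genes with the smallest p from each pathway list in each comparison described, with Igf2, Igf2r, Insr and Irs2 always, and the 3 genes most correlated with each of the 9 that vary at least 0.5 times as much. A gene that the rule names is not reported here. Values given beyond this rule were chosen after they were seen. Among them are Rictor in Kdm5a KO against WT, Htra3 in DKO against Kdm5a KO, and single markers. The 9 genes and all lists were chosen with earlier results of these data known.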

Additional observations from a re-analysis of the deposited data

Results flagged for a closer look

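The effect of Kdm5a loss differed between Rb1-deficient and Rb1-intact mixed cultures, by the test of the difference itself (limma), for all 9 genes, where 18.8% of all genes had a positive and 19.5% a negative difference. The differences on the log2 scale were 2.32 for Igfbp3, 1.31 for Igfbp4, 0.82 for Irs1, -0.49 for Igfbp2, -0.83 for Igf1r, -1.01 for Igf1, -1.03 for Igfbp5, -1.53 for Igfbp7 and -2.09 for Igfbp6. The call of Igfbp2 was lost in 6 of 19 alternatives. In the same test all 15 myotube markers had a positive difference and 10 of 12 fibroblast markers a negative one. The part of these markers in the differences of the 9 genes was not tested. Embryo sex went with Kdm5a genotype in all these libraries and cannot be told apart from it in this test.

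The effect of DKO against WT differed between purified myotubes and mixed cultures for 4 of the 9 genes. The differences were 3.75 for Igfbp5, 2.82 for Igfbp6 (from few reads), -0.87 for Igf1r and -0.89 for Irs1 on the log2 scale. Library preparation and sequencing cannot be told apart from purification in these.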

How the results depend on the processing

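Of the 820 values of log2 changes of the 9 genes over settings other than leaving out a library, 785 kept their direction and their side of the threshold, 26 lost the call, 9 gained it and none turned. Of the 360 values that left out 1 library, 315 kept both, 25 lost the call, 7 gained it and 13 turned. A group left with 1 library was assumed to vary like the others, and the cause of the turns was not tested. The log2 changes that turned were of genes that did not pass in the comparison. Igf1r in Kdm5a KO against WT ran from -0.093 to 0.0057, Igfbp2 from -0.16 to 0.076 and Igfbp6 from -0.52 to 0.063. Igfbp7 in DKO against WT mixed cultures ran from -0.28 to 0.10, and Irs1 in DKO against Rb1 KO from -0.040 to 0.067. In purified DKO against WT, Igfbp2 ran from -0.30 to 0.054 and Igfbp4 from -0.27 to 0.49. For the purified minus mixed difference, Igfbp3 ran from -0.26 to 0.15 and Igfbp4 from -0.50 to 0.25.

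Genes called over the whole table moved most with the fit. Kdm5a KO against WT had 4685 calls, 3021 with no intensity trend, 1272 with all 12 libraries in one fit and 3057 to 4251 with 1 library left out, the lowest without Kdm5a KO replicate 1. With all 12 libraries in one fit, DKO against Rb1 KO had 4742 (8128 as reported), the difference of Kdm5a effects 2910.0 (6591) and purified DKO against WT 10357 (6598). In purified DKO against WT, leaving out a library gave 1983 to 11574 genes and 1 to 7 of the 9, fewest without a WT library and most without a DKO library. Without WT replicate 2 it gave 2170.0 genes and without DKO replicate 2 it gave 10310.0. For the purified minus mixed difference (4292 as reported) the counts ran from 2471 without DKO mixed replicate 1 to 8989 without DKO purified replicate 1, with 2479 without DKO mixed replicate 2, 2800.0 without WT purified replicate 1 and 6615 without DKO purified replicate 2. In DKO against WT mixed cultures 3 of the 9 passed with no intensity trend and 2 with all 12 libraries in one fit, where 6 passed as reported, and with no intensity trend Igfbp6 gained its call. In these 2 fits small changes lost their calls, among them Irs1, Igf1r, Igfbp4 and Igfbp5 in that comparison, Irs1, Igfbp4 and Igfbp5 in Rb1 KO, and Igfbp7 in Kdm5a KO.

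The count tests called similar numbers to limma, edgeR 4889 and DESeq2 4297 genes in Kdm5a KO, 12152 and 11623 in Rb1 KO, 11859 and 11271 in DKO mixed cultures and 6538 and 6499 in purified DKO, each against WT. DESeq2 left Igfbp6 in purified DKO without a call (adjusted p = 0.0622) and added Igfbp5 in Kdm5a KO (0.0467), which also passed with only the groups compared in the fit (0.021). A minimum mean of 100 gave no value for Igfbp6. Quantile normalisation moved the median of all genes by -0.135 in Rb1 KO and -0.141 in DKO against WT, and by -0.147 in DKO against Kdm5a KO. It gave Igfbp6 a call in DKO against WT (-1.79) and against Kdm5a KO (-1.50), and Igfbp2 in DKO against Kdm5a KO (0.25). Without a filter that median moved by 0.182 in DKO against WT and 0.142 against Kdm5a KO.

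Same-numbered replicates did not deviate together, with correlations from -0.047 to 0.052, so the numbers do not pair the libraries. With the replicate number as a block, 8 of the 9 passed in DKO against Kdm5a KO, Igfbp2 being added (log2 change 0.17, adjusted p = 0.0306, limma), and the counts of the 9 in the other comparisons were the same.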
